A study of Rattus norvegicus with 35 samples.

Results

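The comparison described here asks how the effect of aortic ligation on gene expression in the rat left ventricle differed between 42 days and 6 days after the operation. For each gene, the ligation effect of a day was the mean normalised log2 intensity of the ligated ventricles minus that of the sham-operated ventricles of the same day. The change of effect was the effect at day 42 minus the effect at day 6, so a negative value means a lower effect at day 42. It rests on 23 of the 35 arrays of the series: 6 ligated and 6 sham arrays at day 42, and 5 ligated and 6 sham arrays at day 6. All animals were male Wistar rats whose abdominal aorta was ligated or who had the sham operation, and their ages are not given in the sources used here. Total RNA of left ventricle tissue was hybridised to Illumina rat BeadChips, 1 array per sample. The design text gives 6 animals per group and 5 for ligation at day 6, and the p-values measure only the spread among these arrays. A probe was tested if its signal was above the negative controls (detection p under 0.01) on at least 5 arrays of either day. Of 22523 probes 8859 passed this rule, and 6725 of them carried a gene symbol, which gave 6605 genes. The 2134 other probes entered the fit and were not named.

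Ligation of the abdominal aorta raises the pressure against which the left ventricle ejects. In such models, loaded cardiomyocytes grow, re-express fetal genes and release natriuretic peptides. Fibroblasts and immune cells proliferate or enter the wall and lay down or remodel matrix, and the use of fatty acids as fuel declines. Some of these responses belong to the first days after the rise in load, and others last as long as the load does.

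The tissue label was met by its markers, since 14 of 18 ventricular cardiomyocyte markers were tested and their summed intensity was 416100 to 447000 in ligated and 428700 to 461100 in sham arrays at day 42, and 327200 to 426600 in ligated and 383000 to 425900 in sham arrays at day 6. Arrays of the same group correlated at r = 0.9555 or more over the probes tested, which describes probes and carries no test. All arrays of a day lay on 1 BeadChip and each day was normalised within its own table, so levels of different days are not compared. On the BeadChip of day 42, positions A to F held ligated samples and G to L sham samples, so position and operation cannot be told apart there, whereas at day 6 both operations were spread over the chip. Before scaling, the brightness of the arrays (75th percentile of the scanner signal) had a median of 199.4 in ligated and 289 in sham arrays at day 42, and of 262.2 in ligated and 263.8 in sham arrays at day 6. Ligated arrays 1 and 2 of day 6 were the brightest of all 23, at 374.8 and 364.6, and stood apart from the other 3 ligated arrays of that day on the third principal component (-30.6 and -24.5, against 11 to 14.1). The part of brightness and of these 2 arrays in the results was not tested, but counts are also given with brightness as a term of the fit (array brightness as a covariate) and without both arrays, an alternative added after seeing the data.

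The ligation effect differed between the days in 321 of 6605 genes (4.86%) at an adjusted p under 0.05, tested with limma and Benjamini-Hochberg adjustment over all probes. The effect was higher at day 42 in 151 genes (2.29%) and lower in 170 (2.57%). Of these, 57 were higher and 91 lower by 2-fold or more, and 1475 genes had an unadjusted p under 0.05. With brightness in the fit 24 genes were higher and 19 lower, and all of these 43 were among the 321. At day 42 brightness ranged from 161.3 to 272.5 in ligated and from 259.2 to 348.5 in sham arrays, nearly following the operation. The term therefore takes power from the ligation effect of that day, where calls fell from 947 to 141, against 1145 and 1313 at day 6. For a call lost with this term, an influence of brightness and a loss of power cannot be told apart. Without ligated arrays 1 and 2 of day 6, 46 were higher and 47 lower, of which 80 were among the 321. Scaling each array on the median of all its probes, instead of quantile normalisation, moved the median change of effect over all genes to -0.39, against 0.01, and left 10 genes higher and 154 lower. Scaling on the median of the probes tested, chosen after the data had been seen, gave 151 higher and 86 lower with a median of 0.10.

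The 170 genes with a lower effect at day 42 were mostly genes that ligation had raised at day 6. Among them, 117 were called up at day 6 and not called at day 42, with a median effect of -0.14 at day 42 and 1.12 at day 6. A further 41 were called down at day 42 only, 4 were called down at day 42 and up at day 6, 2 were called up on both days, and 6 were called on neither day. The 151 genes with a higher effect at day 42 divided more evenly. Of these, 69 were called down at day 6 and not called at day 42 (medians 0.18 at day 42 and -0.68 at day 6), and 60 were called up at day 42 and not called at day 6 (medians 0.71 and -0.23). The change of effect is computed from the same arrays as both effects, so these classes describe it and add no test. Taken alone, ligated and sham ventricles differed in 947 genes (14.3%) at day 42, with 411 higher (6.22%) and 536 lower (8.12%), and in 1145 (17.3%) at day 6, with 573 higher (8.68%) and 572 lower (8.66%). The groups did not overlap in 391 genes (5.92%) at day 42 and in 561 (8.49%) at day 6. The days shared 206 genes called in the same direction, which is 21.8% of the calls at day 42 and 18% of those at day 6. Over the 6605 genes the effects of both days, which share no arrays, correlated at r = 0.339 (Spearman 0.319), a description across genes that are not independent.

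**Figure D1:**
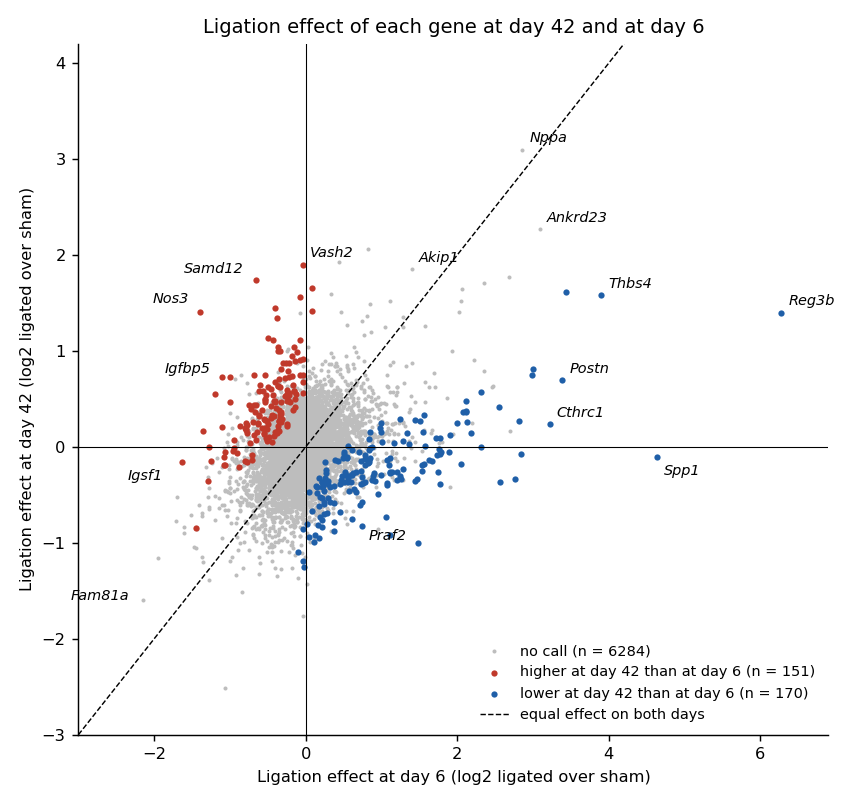
Ligation effect of each of the 6605 genes at day 42 (vertical axis) against day 6 (horizontal axis), both as log2 of ligated over sham. Red points are the 151 genes with a higher and blue points the 170 genes with a lower effect at day 42, grey points had no call, and the dashed line marks equal effects. Blue points spread to the right along the zero line of day 42, with Reg3b and Spp1 farthest out, whereas Nppa lies near the dashed line.

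The matrix list held the most genes with a lower effect at day 42. Of 62 genes of the extracellular matrix and fibrosis list that were tested, 14 had a lower and 0 a higher effect (22.6%, against 4.86% of all genes), and the median change was -0.38, against 0.01 over all genes. At day 42, 12 were called up and 2 down, against 6.22% and 8.12% of all genes. At day 6, 28 were called up and 3 down, against 8.68% and 8.66%. With the brightness term 5 were lower, and without ligated arrays 1 and 2 of day 6, 7 were. Under median scaling 18 were lower.

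Cthrc1, a secreted protein with a collagen triple helix repeat that activated fibroblasts make, had the smallest p of the matrix genes. At day 42 its log2 intensity was 5.67, 5.84 and 6.6 (lowest, median and highest) in ligated and 5.52, 5.75 and 6.10 in sham ventricles, with 2 of 6 and 1 of 6 arrays above background. In the day 6 arrays it was 8.15, 9.98, 9.0, 9.31 and 10.53 in the 5 ligated ventricles, against 5.83, 6.07 and 6.63 in sham ventricles. Every ligated ventricle of day 6 lay above every sham ventricle, and at day 42 the groups overlapped. The effect was 0.24 ± 0.26 (SE) at day 42 and 3.22 ± 0.28 at day 6, a change of -2.99 ± 0.38 (adjusted p = 0.000179).

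Postn, the matricellular protein periostin, stood at 7.19, 7.89 and 8.52 in ligated and 6.51, 7.22 and 7.80 in sham ventricles at day 42. Among arrays of day 6 it stood at 12.59, 13.39, 11.57, 11.74 and 13.12 in ligated ventricles, against 8.67, 9.01 and 9.87 in sham ventricles, again without overlap. Its change of effect was -2.69 ± 0.42 (adjusted p = 0.00149), with an effect of 0.70 ± 0.29 at day 42 (adjusted p = 0.0959) and a 10.5-fold rise at day 6. Fn1, the matrix glycoprotein fibronectin, had 8.72, 9.29 and 9.71 in ligated and 8.80, 9.04 and 9.74 in sham ventricles at day 42. At day 6 it had 11.93, 12.90, 11.47, 11.65 and 13.02 in ligated ventricles, against 9.70, 10.04 and 10.24 in sham ventricles. The groups were apart at day 6 and overlapped at day 42, with a change of -2.03 ± 0.36 (adjusted p = 0.0032).

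Spp1, the cytokine and matrix protein osteopontin, was above background on 3 of 6 ligated and 4 of 6 sham arrays at day 42 (5.01, 6.10 and 6.99 against 4.67, 6.62 and 6.84). In the ligated ventricles of day 6 it reached 9.42, 13.64, 9.60, 10.97 and 11.75, against 4.93, 6.59 and 7.77 in sham ventricles, and the groups did not overlap. The change of effect was -4.74 ± 0.91 (adjusted p = 0.00648). Cthrc1, Postn, Fn1 and Spp1 kept their calls in every alternative that gave a value, among them brightness in the fit and the fit without ligated arrays 1 and 2 of day 6. Cthrc1 met the detection rule mainly through the ligated arrays of day 6, so its kept call adds no support.

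Other matrix genes lost their calls in some settings. Timp1, an inhibitor of matrix metalloproteinases, had 9.39, 9.77 and 10.22 in ligated and 8.39, 8.98 and 9.59 in sham ventricles at day 42. In the day 6 arrays it had 13.81, 13.81, 11.13, 11.52 and 12.84 in ligated ventricles, against 9.46, 9.68 and 9.71 in sham ventricles, with arrays 1 and 2 highest. Its change of effect was -2.24 ± 0.49 (adjusted p = 0.0125) and did not pass with brightness in the fit. Thbs4, a thrombospondin, was 1 of 2 genes called up on both days and lower at day 42, the other being Ltbp2, a protein of elastic microfibrils. Its effect was 1.58 ± 0.37 at day 42 (adjusted p = 0.00876) and 3.90 ± 0.39 at day 6, a change of -2.33 ± 0.54 (adjusted p = 0.0185) that did not pass with brightness in the fit or without the 2 arrays. The fibrillar collagens did not pass: Col1a1 changed by -1.03 ± 0.36 (adjusted p = 0.0906) and Col3a1 by -0.99 ± 0.40 (adjusted p = 0.136). Ccn2, connective tissue growth factor, and Tgfb2, a transforming growth factor, were called up on both days with no call in the change (0.40 ± 0.42 and -0.42 ± 0.39). The 95% intervals of their changes were -0.47 to 1.27 and -1.22 to 0.38.

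Of 9 activated fibroblast markers tested, 5 had a lower effect at day 42 and 0 a higher one (55.6%, against 4.86% of all genes). The median change was -1.83. The 5 were Cthrc1, Postn, Thbs4, Fn1 and Ltbp2, which the matrix list also holds. The summed intensity of the 9 markers was 4610 to 7303 in ligated and 2909 to 3809 in sham arrays at day 42, and 11990 to 32200 in ligated and 4017 to 5492 in sham arrays at day 6. Of 15 general fibroblast markers, 2 had a lower effect (13.3%, against 4.86% of all genes). They were S100a4 (-1.74 ± 0.45), a calcium-binding protein, and Mfap5 (-1.29 ± 0.32), a microfibril protein. Neither passed with brightness in the fit or without the 2 arrays. In these bulk samples fewer cells of a type and less RNA per cell cannot be told apart.

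Of 30 acute phase and inflammatory genes tested, 7 had a lower and 0 a higher effect at day 42 (23.3%, against 4.86% of all genes called and 2.57% lower), and the median change was -0.82. At day 42, 2 were called up and 2 down, a share near the 14.3% of all genes, whereas at day 6, 15 were called up and 1 down, against 17.3%. With brightness in the fit 2 were lower, and without ligated arrays 1 and 2 of day 6, 4 were. The 7 genes were Reg3b, Hmox1, Ccl2, Ptgs2, Tlr2, Lbp and Osmr.

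Reg3b, a secreted C-type lectin of the acute response, had the most negative change of all genes called. At day 42 it stood at 7.73, 9.93 and 11.04 in ligated and 7.41, 8.17 and 8.97 in sham ventricles. Among arrays of day 6 it stood at 14.17, 14.95, 12.43, 14.24 and 13.66 in ligated ventricles, against 6.43, 7.70 and 8.76 in sham ventricles. The groups were far apart at day 6 (77.7-fold) and overlapped at day 42, where the effect of 1.40 ± 0.50 had an adjusted p of 0.0579. The change of effect was -4.88 ± 0.72 (adjusted p = 0.000995).

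Hmox1, the haem oxygenase that degrades haem, had 6.89, 7.24 and 7.76 in ligated and 6.86, 7.88 and 7.97 in sham ventricles at day 42. In the ligated ventricles of day 6 it had 11.93, 12.08, 9.63, 9.49 and 11.21, against 7.80, 8.29 and 8.90 in sham ventricles. The groups were apart at day 6 only, and the change was -2.93 ± 0.51 (adjusted p = 0.00305). Reg3b and Hmox1 kept their calls in every alternative. Ccl2, which attracts monocytes, read 12.59, 10.31, 7.95, 8.28 and 8.28 in the ligated ventricles of day 6, against 6.28, 6.58 and 7.24 in sham ventricles, with arrays 1 and 2 highest. At day 42 it read 6.01, 6.36 and 6.95 in ligated and 5.54, 6.76 and 7.18 in sham ventricles. Its change of -2.90 ± 0.76 (adjusted p = 0.0307) was -1.56 without the 2 arrays, still past the threshold, and did not pass with brightness in the fit. Lbp, which binds bacterial lipopolysaccharide, changed by -1.75 ± 0.40 (adjusted p = 0.0166) and Osmr, the oncostatin M receptor, by -1.39 ± 0.32 (adjusted p = 0.0177). Osmr was above background on 1 of 6 ligated and 2 of 6 sham arrays at day 42 and on 5 of 5 ligated and 2 of 6 sham arrays at day 6, and its change was -0.66 without background correction, so its size is not well measured. Ptgs2, the inducible cyclooxygenase, was not above background on any array of day 42, so its effect on that day and the size of its change are not measured. Of 13 complement genes, 10 were called up at day 6 and 1 at day 42, against 8.68% and 6.22% of all genes. The day 6 count was 11 with brightness in the fit and 4 without the 2 arrays. In 12 of the 13 the change of effect was below 0, with a median of -0.76. An unadjusted p under 0.05 in limma was found in 8 of the 13, against 1475 of all 6605 genes. The 1 with a call (7.69%, against 4.86% of all genes) was C4b, a component of the classical pathway (-1.64 ± 0.39, adjusted p = 0.0194). It passed with brightness in the fit and without the 2 arrays. Of 37 genes of antigen presentation and interferon response, 1 was called (2.7%, against 4.86% of all genes). It was Ifitm1, an interferon-induced membrane protein (-1.12 ± 0.29, adjusted p = 0.0276).

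Macrophage and monocyte markers moved with these genes. All 17 markers tested had a change of effect below 0, with a median of -1.01, against 3195 of all 6605 genes below 0. In the change 4 of the markers passed (23.5%, against 4.86% of all genes): Cd14, Lgals3, Fcer1g and Ctss. At day 42, 0 of the markers were called (14.3% of all genes), and at day 6, 14 were called up (8.68% of all genes). The day 6 count was 13 with brightness in the fit. Without ligated arrays 1 and 2 of day 6 it was 2 of 16 markers tested, against 282 of 6468 genes, and the median change was -0.57. Most of the day 6 calls thus depended on these 2 arrays. Their summed intensity was 3972 to 9550 in ligated and 5354 to 9165 in sham arrays at day 42, and 12620 to 62770 in ligated and 9202 to 11660 in sham arrays at day 6. With the brightness term and likewise without ligated arrays 1 and 2 of day 6, 0 of the 4 kept their call. Cd14, the lipopolysaccharide co-receptor, had 11.06, 11.09, 7.88, 9.03 and 9.38 in the ligated ventricles of day 6, against 7.51, 8.01 and 8.2 in sham ventricles. Arrays 1 and 2 were the highest, and array 3 lay within the sham range. At day 42 Cd14 had 5.90, 7.22 and 7.38 in ligated and 7.02, 7.27 and 7.52 in sham ventricles, a change of -2.01 ± 0.55 (adjusted p = 0.0351) that was -1.09 without the 2 arrays. The galectin Lgals3 changed by -1.75 ± 0.45 (adjusted p = 0.027), the Fc receptor chain Fcer1g by -1.45 ± 0.35 (adjusted p = 0.0199) and the lysosomal protease Ctss by -1.22 ± 0.33 (adjusted p = 0.035). The part of macrophage content in the inflammatory genes was not tested.

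**Figure D2:**
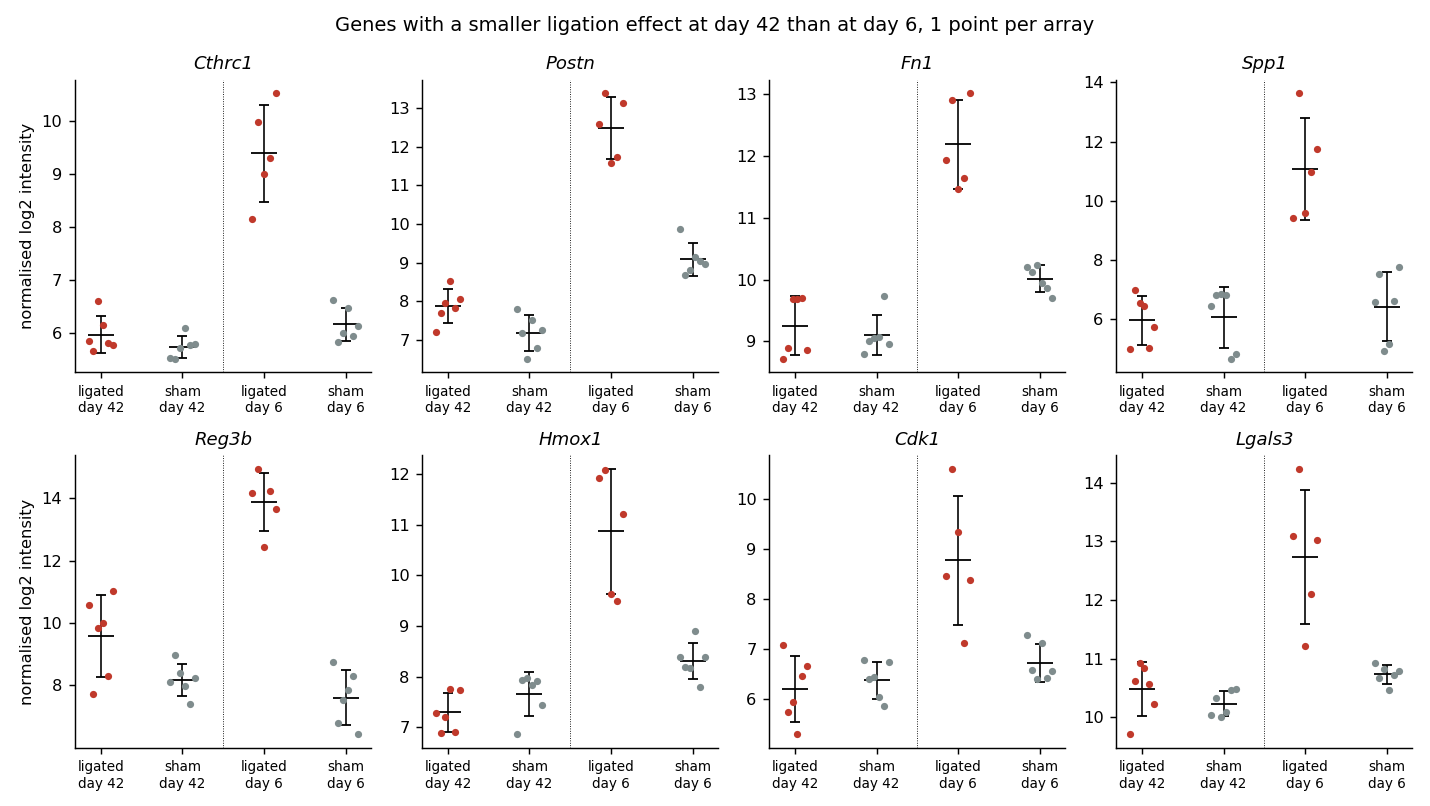
Normalised log2 intensity of 8 genes with a lower ligation effect at day 42, with 1 point per array, ligated ventricles in red and sham ventricles in grey, and the mean with its SD in black. The dotted line parts the days, which were normalised separately. At day 6 the ligated arrays lie above the sham arrays in 7 of the 8 panels, Cdk1 being the exception with 1 overlapping array, and at day 42 the groups overlap in all 8.

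Cell cycle genes were raised at day 6 and hardly at day 42. Of 37 genes of cell cycle and DNA replication tested, 9 had a lower and 0 a higher effect at day 42 (24.3%, against 4.86% of all genes). The median change was -0.59. At day 42, 2 were called up, against 6.22% of all genes, and at day 6, 23 were called up, against 8.68%. On either day 0 were called down. With brightness in the fit 0 kept a call, and without ligated arrays 1 and 2 of day 6, 2 were called. The 9 genes were Cdk1, Rrm2, Ccnb2, Ube2c, Cdkn3, Aurkb, Cks2, Prc1 and Tpx2, which act in mitosis or, in the case of Rrm2, in making deoxynucleotides.

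Cdk1, the mitotic cyclin-dependent kinase, stood at 5.29, 6.2 and 7.08 in ligated and 5.85, 6.41 and 6.78 in sham ventricles at day 42. At day 6 it stood at 8.45, 10.60, 9.33, 7.11 and 8.37 in ligated ventricles, against 6.39, 6.56 and 7.28 in sham ventricles, where only ligated array 4 overlapped the sham range. The change of effect was -2.23 ± 0.56 (adjusted p = 0.0249). Ccnb2, cyclin B2, had 6.46, 7.23 and 7.54 in ligated and 6.47, 6.89 and 7.43 in sham ventricles at day 42. It had 8.58, 10.96, 9.52, 8.07 and 9.02 in ligated and 6.64, 7.04 and 7.62 in sham ventricles at day 6, without overlap. Its change of -1.87 ± 0.46 (adjusted p = 0.0226) passed without the 2 arrays and did not pass with brightness in the fit. Cks2, a binding partner of cyclin-dependent kinases, changed by -1.75 ± 0.44 (adjusted p = 0.0245). Ube2c and Rrm2 were above background on 0 of 6 ligated and 1 of 6 sham arrays at day 42, so their effects on that day are not measured. In all 3 detected genes ligated array 2 of day 6 was the highest of its group.

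Promoters of many mitotic genes are known for 2 short elements, the CHR and the CCAAT box, so the upstream sequences of 3 of the genes above are shown. They are the 250 bases before the transcription start in RefSeq (GRCr8), read 5′ to 3′ on the strand of the gene, with TTTGAA and CCAAT in capitals on either strand. A match on the opposite strand reads TTCAAA or ATTGG, and no marked letters overlap.
Ccnb2: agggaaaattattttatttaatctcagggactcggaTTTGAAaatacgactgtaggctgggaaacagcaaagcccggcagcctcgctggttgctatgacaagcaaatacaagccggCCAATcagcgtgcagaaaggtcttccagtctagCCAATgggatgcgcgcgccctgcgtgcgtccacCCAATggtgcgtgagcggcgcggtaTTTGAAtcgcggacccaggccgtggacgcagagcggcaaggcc
Cdk1: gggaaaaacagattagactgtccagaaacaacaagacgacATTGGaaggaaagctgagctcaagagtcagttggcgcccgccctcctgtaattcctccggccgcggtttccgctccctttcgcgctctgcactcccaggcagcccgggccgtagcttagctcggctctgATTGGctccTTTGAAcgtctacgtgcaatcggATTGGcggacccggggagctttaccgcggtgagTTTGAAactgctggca
Cks2: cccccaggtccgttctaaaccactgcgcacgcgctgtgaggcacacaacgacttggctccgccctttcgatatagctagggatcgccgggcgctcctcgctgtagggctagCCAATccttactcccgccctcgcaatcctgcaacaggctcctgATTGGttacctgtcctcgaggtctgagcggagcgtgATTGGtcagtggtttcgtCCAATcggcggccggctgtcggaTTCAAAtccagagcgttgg
Ccnb2 lies at chr8:79981659-79981908 on the minus strand, Cdk1 at chr20:19265043-19265292 on the plus strand and Cks2 at chr17:13727520-13727769 on the minus strand. Ccnb2 holds 2 TTTGAA and 3 CCAAT, Cdk1 2 and 3, and Cks2 1 and 4. Of the 9 cell cycle genes with a lower effect, 5 had a promoter entry, and all 5 held both motifs. Of the 25 list members without a call that had an entry, 8 held TTTGAA and 18 held CCAAT. Over 33469 promoters of this length, 16.2% held TTTGAA and 34.0% held CCAAT. These counts describe letters, not binding.

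Of 52 tubulin and actin cytoskeleton genes, 7 had a lower and 2 a higher effect at day 42 (17.3%, against 4.86% of all genes), and the median change was -0.33. The brightness term left 0 lower and 1 higher, and without ligated arrays 1 and 2 of day 6, 1 was lower and 2 higher. At day 6, 23 were called up and 2 down, against 8.68% and 8.66% of all genes. At day 42, 4 were called up and 1 down, against 6.22% and 8.12%. Pfn1, the actin monomer binder profilin 1, had 10.56, 11.08 and 11.38 in ligated and 11.03, 11.60 and 11.76 in sham ventricles at day 42. In the day 6 arrays it had 12.35, 12.90, 12.37, 12.31 and 12.67 in ligated ventricles, against 11.57, 11.74 and 12.10 in sham ventricles. The ligated ventricles were all higher than the sham ventricles at day 6, and the change was -1.12 ± 0.22 (adjusted p = 0.00839), which passed without the 2 arrays and did not pass with brightness in the fit. S100a11, a calcium-binding partner of annexins, changed by -0.97 ± 0.24 (adjusted p = 0.0233), and the beta tubulin Tubb6 by -1.24 ± 0.32 (adjusted p = 0.027). The 2 members with a higher effect were Map1b, a microtubule-associated protein, and Itga1, a collagen-binding integrin subunit. With the brightness term neither S100a11, Tubb6 nor Itga1 passed.

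Of 55 cytosolic ribosomal proteins, 4 had a lower effect at day 42 and 0 a higher one (7.27%, against 4.86% of all genes), with a median of -0.13. Rps26 was at 11.81, 12.18 and 12.38 in ligated and 12.33, 12.82 and 13.48 in sham ventricles at day 42, and its effect there was -0.78 ± 0.17 (adjusted p = 0.00444). Among arrays of day 6 it was at 13.77, 13.68, 13.09, 13.12 and 13.41 in ligated ventricles, against 12.85, 13.02 and 13.24 in sham ventricles. The groups overlapped on both days, and the change was -1.15 ± 0.24 (adjusted p = 0.0096), which did not pass with brightness in the fit or without the 2 arrays. Rplp1 (-0.67 ± 0.16) and Rpl10 (-0.64 ± 0.17) did not pass with brightness in the fit either. Eef1b2, a guanine nucleotide exchange subunit of elongation factor 1, changed by -0.88 ± 0.18 (adjusted p = 0.00851) and kept its call in every alternative, as the 1 gene of 44 translation factors with a lower effect, beside 1 with a higher one. Ribosome biogenesis (1 of 50), heat shock (1 of 52), proteasome (0 of 43), immediate early (0 of 36), clock (0 of 11) and cholesterol (0 of 23) genes had few or no calls in limma at adjusted p under 0.05. At an unadjusted p under 0.05 the lists without a call had 6 proteasome, 2 immediate early, 1 clock and 4 cholesterol genes. Each is a lower share than the 1475 of all 6605 genes.

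Stress and fetal cardiac genes were raised on both days. Of 21 genes tested, 11 were called up at day 42 and 13 at day 6, against 6.22% and 8.68% of all genes. On either day 0 of the 21 were called down, and their median effect was 0.61 at day 42 and 0.67 at day 6. In the change of effect 1 was higher and 2 lower (14.3%, against 4.86% of all genes), with a median of -0.08.

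Nppa, the atrial natriuretic peptide, had 12.30, 14.96 and 15.56 in ligated and 10.14, 10.66 and 13.79 in sham ventricles at day 42. At day 6 it had 16.07, 15.84, 15.86, 15.74 and 16.03 in ligated ventricles, against 12.18, 13.23 and 13.54 in sham ventricles. Groups were apart at day 6 and overlapped at day 42, where both operations spread widely. The effect was 3.10 ± 0.53 at day 42 (adjusted p = 0.00113) and 2.86 ± 0.56 at day 6 (adjusted p = 0.00152). Its change of 0.24 ± 0.77 had an interval of -1.35 to 1.83, which leaves room for a change of more than 2-fold either way, and was -0.07 under median scaling. The ligated values of day 6 were close to saturation, where differences are compressed.

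Ankrd23, a muscle ankyrin repeat protein, had 6.79, 8.27 and 9.41 in ligated and 5.04, 5.86 and 6.40 in sham ventricles at day 42. It had 9.33, 9.27, 8.43, 8.36 and 9.39 in ligated and 5.34, 5.86 and 6.36 in sham ventricles at day 6. The groups did not overlap on either day, and the change was -0.82 ± 0.51 (interval -1.86 to 0.22). Among sham arrays Ankrd23 was above background on 3 of 6 at day 42 and 2 of 6 at day 6. The sizes of its effects and of its change are therefore not well measured. Tnfrsf12a, the receptor of the cytokine TWEAK, had an effect of 1.52 ± 0.26 at day 42 and 2.05 ± 0.27 at day 6 with no overlap on either day, and a change of -0.53 ± 0.38 (interval -1.31 to 0.24). Acta1, the skeletal actin, was called up on both days (1.36 ± 0.23 and 0.81 ± 0.24), and Nppb, the B-type natriuretic peptide, at day 42 (1.31 ± 0.26), with 0.74 ± 0.27 at day 6 (adjusted p = 0.0613). Their changes of 0.55 ± 0.33 and 0.56 ± 0.37 did not pass. The ligated values of Acta1, at 15.94, 15.03, 16.04, 15.72 and 15.93 on day 6, were close to saturation, so its day 6 effect and its change can be compressed. Myh7, Myh6, Ankrd1 and Atp2a2, which encode both cardiac myosin heavy chains, a stress-induced ankyrin protein and the calcium pump of the sarcoplasmic reticulum, had changes between -0.01 and 0.40, none of which passed. Their probes were close to saturation as well.

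Outside this list, Akip1, a binding partner of protein kinase A, had 11.69, 12.34 and 13.10 in ligated and 9.68, 10.46 and 11.35 in sham ventricles at day 42. It had 11.92, 12.12, 12.23, 11.75 and 12.09 in ligated ventricles at day 6, against 10.53, 10.56 and 10.86 in sham ventricles. The groups were apart on both days, with a change of 0.45 ± 0.35 (interval -0.28 to 1.17). Scn3b, a sodium channel beta subunit, was called up on both days (1.71 ± 0.30 and 2.36 ± 0.32), and Fam81a was called down on both (-1.60 ± 0.28 and -2.15 ± 0.30, above background on 2 of 6 ligated arrays at day 42 and 1 of 5 at day 6). Neither passed in the change. Cd1d1, which presents lipid antigens, was the 1 gene called down on both days with a call in the change, at -0.84 ± 0.12 at day 42 and -1.45 ± 0.13 at day 6. Its change of 0.61 ± 0.17 (adjusted p = 0.0437) did not pass in 22 of 37 alternatives, where the adjusted p reached 0.714. The 3 members of the stress list with a call were Mybpc2, fast myosin-binding protein C (-2.18 ± 0.43, adjusted p = 0.00682), Tubb6, described above, and Myocd, the coactivator myocardin (1.11 ± 0.29, adjusted p = 0.0295). None of the 3 passed with brightness in the fit.

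**Figure D3:**
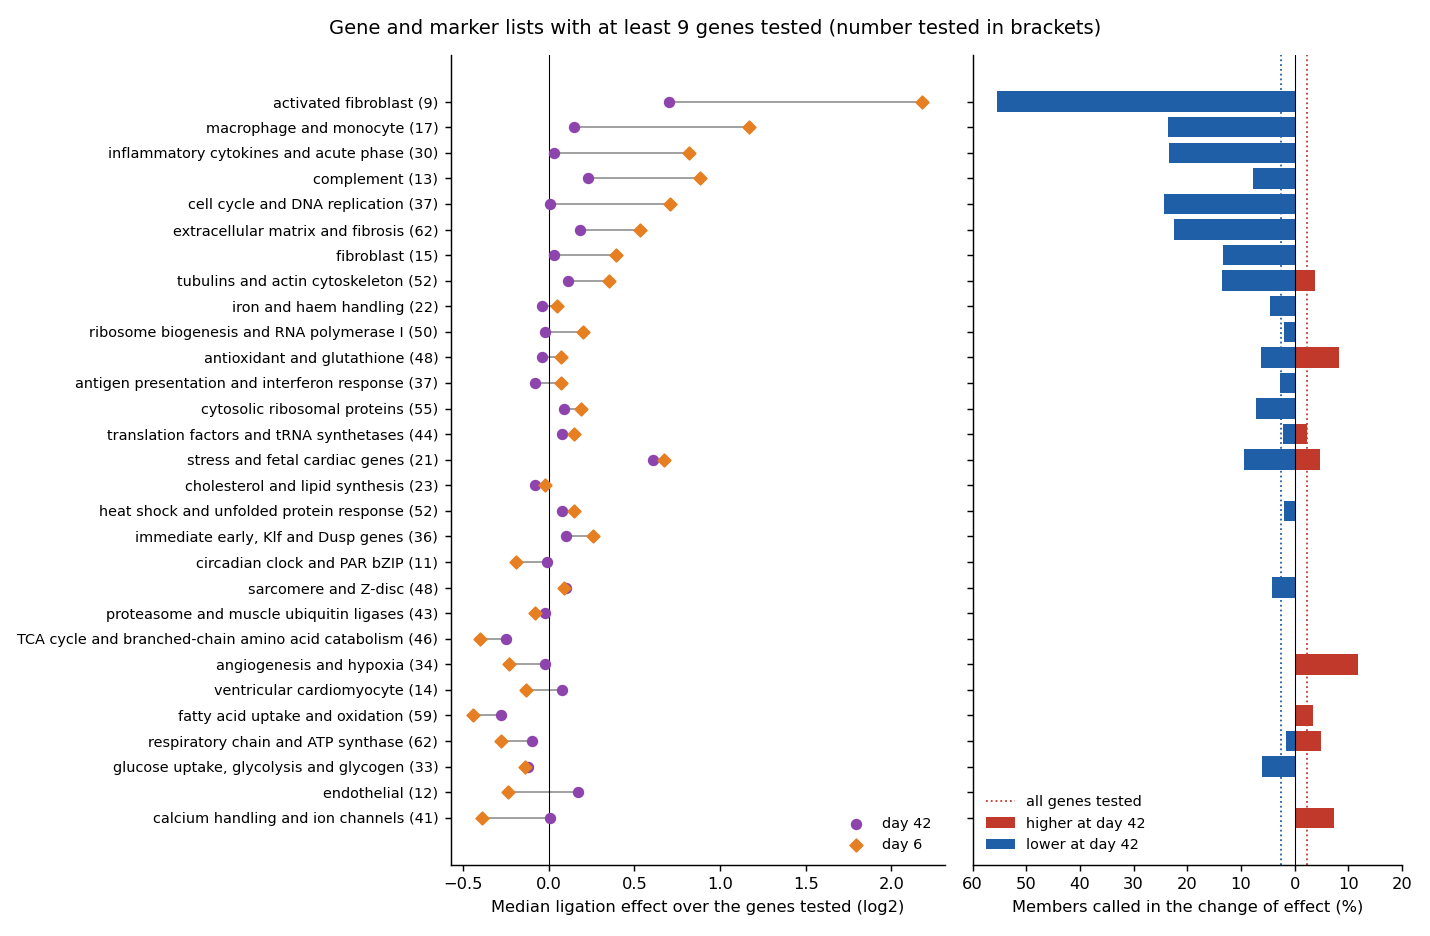
Gene and marker lists with at least 9 genes tested. The left panel shows the median ligation effect of each list at day 42 (circles) and day 6 (diamonds) in log2 units, and the right panel the share of its members with a higher (red) or lower (blue) effect at day 42, with the shares over all genes dotted. Activated fibroblast markers have the widest gap between the days (0.70 at day 42 and 2.18 at day 6), and stress genes a narrow one at a raised level (0.61 and 0.67).

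Samd12, Vash2, Ssh2 and Usp36 were called up at day 42 and not at day 6. Samd12, a SAM domain protein, had 7.73, 7.93 and 8.56 in ligated and 5.73, 6.40 and 6.62 in sham ventricles at day 42. In the day 6 arrays it had 5.72, 6.27, 6.77, 5.37 and 6.36 in ligated ventricles, against 5.78, 6.78 and 7.65 in sham ventricles. The groups were apart at day 42 and overlapped at day 6, with a change of 2.39 ± 0.38 (adjusted p = 0.00163).

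Ssh2, a phosphatase that activates the actin-severing protein cofilin, had 7.68, 8.04 and 8.27 in ligated and 6.19, 6.54 and 6.93 in sham ventricles at day 42. Among arrays of day 6 it had 5.61, 5.50, 5.67, 6.09 and 6.83 in ligated ventricles, against 5.77, 6.39 and 6.91 in sham ventricles, and was above background on 1 of 5 ligated arrays. As with Samd12, the groups were apart at day 42 alone, and the change was 1.85 ± 0.30 (adjusted p = 0.00201). Vash2, a vasohibin that removes the terminal tyrosine of tubulin, had 8.04, 8.63 and 8.87 in ligated and 5.66, 6.61 and 7.56 in sham ventricles at day 42, and 6.2, 6.08, 7.2, 6.22 and 7.08 in ligated and 6.50, 6.55 and 6.89 in sham ventricles at day 6. Its change of 1.94 ± 0.38 (adjusted p = 0.00682) did not pass with brightness in the fit, whereas Samd12 and Ssh2 kept their calls in every alternative. Usp36, a nucleolar deubiquitinase, changed by 1.63 ± 0.38 (adjusted p = 0.0177), and lost its call in 5 alternatives, among them brightness in the fit and the fit without the 2 arrays.

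Map1b followed the same pattern in the brighter of its 2 probes, with 7.68, 7.94 and 8.22 in ligated and 6.06, 6.31 and 6.52 in sham ventricles at day 42 and a change of 1.57 ± 0.28 (adjusted p = 0.0032). Its other probe changed by -0.08 ± 0.48 (adjusted p = 0.941), so the probes disagree. Nexn, the Z-disc actin binder nexilin, likewise had a change of 1.64 ± 0.37 (adjusted p = 0.0147) in 1 probe and of 0.20 ± 0.20 (adjusted p = 0.582) in the other. Kcnj13, an inward rectifier potassium channel, was above background on 6 of 6 ligated and 1 of 6 sham arrays at day 42 and on 0 of 5 and 1 of 6 at day 6. Its effect at day 42 was 1.34 ± 0.20 (adjusted p = 0.000397), a value that rests on a sham group mostly at background, and its day 6 level in ligated ventricles has only a bound.

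Other genes with a higher effect were called down at day 6 and not at day 42. Igsf1, a membrane protein of the immunoglobulin superfamily, had 8.96, 9.30 and 9.72 in ligated and 9.04, 9.40 and 10.14 in sham ventricles at day 42. At day 6 it had 7.65, 7.15, 8.2, 8.07 and 7.95 in ligated ventricles, against 9.22, 9.39 and 9.79 in sham ventricles. All ligated ventricles lay below all sham ventricles at day 6, and the change was 1.47 ± 0.26 (adjusted p = 0.00323), kept in every alternative. Smoc2, a calcium-binding matricellular protein, had 9.85, 10.07 and 10.54 in ligated and 9.08, 9.61 and 9.89 in sham ventricles at day 42, and 7.38, 8.58, 9.36, 9.31 and 8.69 in ligated and 9.42, 9.86 and 10.13 in sham ventricles at day 6. Its change of 1.74 ± 0.34 (adjusted p = 0.0077) was lost with brightness in the fit alone. Itga1 (1.54 ± 0.33, adjusted p = 0.011) and Mt3, a metallothionein (1.46 ± 0.34, adjusted p = 0.0183), were called down at day 6 and not at day 42, and neither passed with brightness in the fit or under median scaling.

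**Figure D4:**
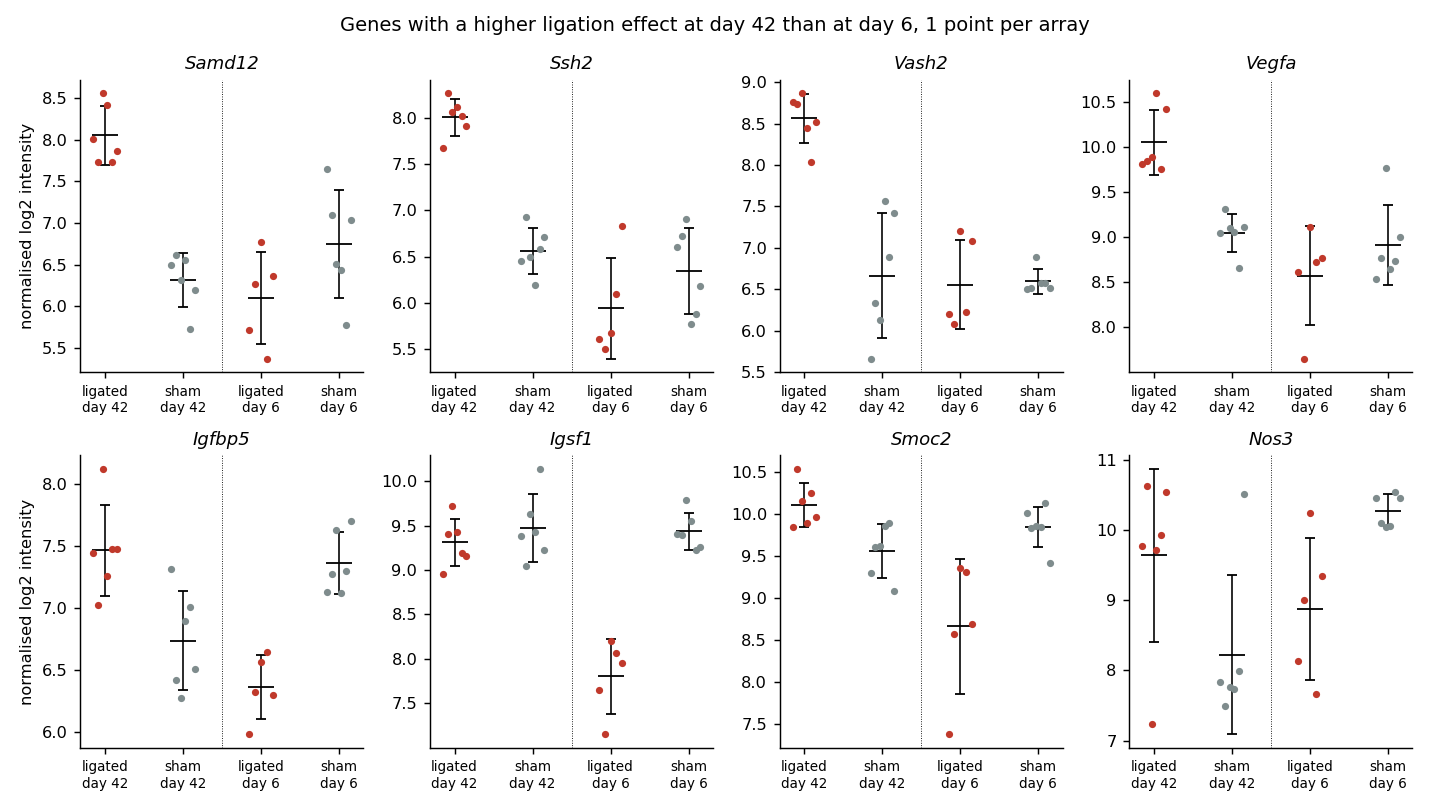
Normalised log2 intensity of 8 genes with a higher ligation effect at day 42, drawn as in the plot of genes with a lower effect (ligated ventricles red, sham ventricles grey, mean with SD in black). Samd12, Ssh2, Vash2 and Vegfa are apart at day 42 and overlap at day 6, Igfbp5, Igsf1 and Smoc2 lie below sham at day 6, and Nos3 has 1 ligated array at 7.24 and 1 sham array at 10.51 at day 42.

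Of 34 genes of angiogenesis and hypoxia, 4 had a higher effect at day 42 and 0 a lower one (11.8%, against 4.86% of all genes). The median change was 0.11. Under median scaling 1 of the list was called, and its median was -0.24. With brightness in the fit, and also without ligated arrays 1 and 2 of day 6, 1 was called. Vegfa, the vascular endothelial growth factor, had 9.76, 9.86 and 10.60 in ligated and 8.66, 9.08 and 9.31 in sham ventricles at day 42. In the day 6 arrays it had 8.61, 7.65, 9.11, 8.72 and 8.77 in ligated ventricles, against 8.54, 8.75 and 9.77 in sham ventricles. It was 2.0-fold higher at day 42 (1.00 ± 0.22, adjusted p = 0.00514) with no overlap, and overlapped at day 6. Its change of 1.34 ± 0.32 (adjusted p = 0.0189) did not pass under median scaling, with brightness in the fit or without the 2 arrays. Nos3, the endothelial nitric oxide synthase, changed by 2.82 ± 0.75 (adjusted p = 0.0319), the highest value called, yet 1 array of each operation at day 42 lay with the other group and the call was lost in 11 alternatives. Nrp1, a co-receptor of Vegfa, changed by 0.80 ± 0.21 (adjusted p = 0.0333), and its call was lost in 11 of 37 alternatives. Of 12 endothelial markers 0 were called in limma at adjusted p under 0.05. An unadjusted p under 0.05 was found in 2 of them, against 1475 of all 6605 genes. Their summed intensity was 22250 to 29280 in ligated and 20520 to 30490 in sham arrays at day 42. At day 6 it was 20960 to 26040 in ligated and 26430 to 31790 in sham arrays.

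Igfbp5, the fourth of these genes, binds insulin-like growth factors and was called in opposite directions. It had 7.02, 7.46 and 8.12 in ligated and 6.27, 6.70 and 7.31 in sham ventricles at day 42, where ligation raised it by 0.73 ± 0.18 (adjusted p = 0.0111) with some overlap. Among arrays of day 6 it had 5.98, 6.32, 6.56, 6.64 and 6.30 in ligated ventricles, against 7.12, 7.29 and 7.70 in sham ventricles, an effect of -1.0 ± 0.19 (adjusted p = 0.00123) without overlap. The change of 1.73 ± 0.26 (adjusted p = 0.00126) was kept in every alternative.

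In all, 6 genes were called in opposite directions on the 2 days. Bdh2, a dehydrogenase of ketone and iron-chelator metabolism, was higher in ligated ventricles at day 42 (0.43 ± 0.14, adjusted p = 0.0434 in limma). At day 6 it was lower (-0.46 ± 0.15, adjusted p = 0.0359). Its groups overlapped on both days, and the call in its change was lost in 4 of 37 alternatives. Pls3, an actin-bundling plastin, was at 6.81, 7.2 and 7.5 in ligated and 7.68, 7.91 and 8.18 in sham ventricles at day 42, with no overlap. At day 6 it was at 9.47, 8.70, 8.82, 8.36 and 8.46 in ligated ventricles, against 7.89, 8.11 and 8.44 in sham ventricles. Its effect was -0.75 ± 0.16 at day 42 and 0.61 ± 0.17 at day 6, a change of -1.37 ± 0.23 (adjusted p = 0.00238). Ppp1r18, an actin-binding subunit of protein phosphatase 1, had effects of -0.57 ± 0.16 and 0.75 ± 0.17 on those days, and Praf2, a membrane protein of vesicle traffic, of -0.82 ± 0.21 and 0.74 ± 0.22. Pls3 and Ppp1r18 kept their calls in every alternative, and Praf2 lost its call with brightness in the fit. Sqor, a mitochondrial sulfide oxidase, was above background on 0 of 6 ligated and 1 of 6 sham arrays at day 42, so its fall there is not measured. Its change was -1.12, and -0.49 without background correction.

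Of 59 genes of fatty acid uptake and oxidation, 12 were called down at day 42, against 8.12% of all genes, and 25 at day 6, against 8.66%, with median effects of -0.28 and -0.44. The day 42 count depended on the setting, with 1 called down with brightness in the fit and 45 under median scaling, where 11 were called down at day 6. Without ligated arrays 1 and 2 of day 6, 18 were called down at day 42 and 15 at day 6. The median change was 0.15, with 2 higher and 0 lower, which is 3.39% and below the 4.86% of all genes. The sign of this median depended on scaling, as it was -0.21 under median scaling. The 2 genes were Ppara, the nuclear receptor that drives fatty acid oxidation (1.18 ± 0.34, adjusted p = 0.0428), and Acsl6, an acyl-CoA synthetase (1.10 ± 0.32, adjusted p = 0.0468). Both lost their calls under median scaling and without the 2 arrays. Over all 37 alternatives the call was lost in 19 for Ppara and 24 for Acsl6. Called down on both days, as normalised here, were the beta-oxidation enzymes Acadm, Acadvl, Eci1, Eci2, Ech1 and Decr1, with Acsl1, Acad10 and Plin5. None of these 9 had a call in the change.

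Of 62 genes of the respiratory chain and ATP synthase, 3 had a higher and 1 a lower effect (6.45%, near the 4.86% of all genes). The median change was 0.16, or -0.05 under median scaling. The 4 were Uqcrb of complex III (0.51 ± 0.15, adjusted p = 0.0486), Ndufa1 of complex I (0.53 ± 0.15, adjusted p = 0.0481), Atp5pd of the ATP synthase (0.68 ± 0.19, adjusted p = 0.044) and the nucleotide carrier Slc25a5 (-0.58 ± 0.17, adjusted p = 0.0477). Each lost the call under median scaling, with brightness in the fit and without the 2 arrays. Over all 37 alternatives the call was lost in 23 for Uqcrb, 25 for Ndufa1, 19 for Atp5pd and 23 for Slc25a5. Among the TCA cycle and amino acid catabolism genes 0 of 46 were called in limma. An unadjusted p under 0.05 was found in 12 of the 46, near the share of 1475 of all 6605 genes. Of the 46, 7 were called down at day 42 and 18 at day 6, against 8.12% and 8.66% of all genes. At day 42 that count was 1 with brightness in the fit, 39 under median scaling and 11 without the 2 arrays. At day 6 it was 18, 4 and 7 in these settings. Under median scaling and without the 2 arrays, more genes were thus called down at day 42 than at day 6. Of 33 glycolysis genes, 2 had a lower effect (6.06%, near the 4.86% of all genes). They were Pfkp, a phosphofructokinase (-0.88 ± 0.22, adjusted p = 0.0224), and Eno2, an enolase (-0.87 ± 0.24, adjusted p = 0.0336). Neither passed with brightness in the fit.

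Among calcium handling and ion channel genes, 3 of 41 had a higher effect at day 42 and 0 a lower one (7.32%, against 4.86% of all genes). The median change was 0.34, or -0.02 under median scaling. At day 42, 3 were called up and 3 down, against 6.22% and 8.12% of all genes. At day 6, 3 were called up and 12 down, against 8.68% and 8.66%. Kcnip2, a subunit of the channel of the transient outward potassium current, had 12.74, 12.93 and 13.51 in ligated and 11.80, 12.30 and 12.70 in sham ventricles at day 42. In the day 6 arrays it had 11.45, 10.87, 12.64, 12.73 and 12.87 in ligated ventricles, against 12.29, 12.84 and 13.16 in sham ventricles, where ligated arrays 1 and 2 were the lowest. The groups were apart at day 42 and overlapped at day 6, with a change of 1.44 ± 0.38 (adjusted p = 0.032) that was lost under median scaling, with brightness in the fit and without the 2 arrays. Abcc8, the sulfonylurea receptor (0.80 ± 0.20, adjusted p = 0.0262), and Camk2d, a calcium-dependent kinase (0.59 ± 0.17, adjusted p = 0.0428), lost their calls in these settings too. Over all 37 alternatives the call was lost in 10 for Kcnip2, 4 for Abcc8 and 21 for Camk2d.

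Of 48 antioxidant genes, 4 had a higher and 3 a lower effect at day 42 (14.6%, against 4.86% of all genes). Under median scaling 0 were higher and 3 lower, and with brightness in the fit, as also without the 2 arrays, 0 were higher and 1 lower. The lower ones were Hmox1, Mt1, a metallothionein, and Cybb, the phagocyte NADPH oxidase. The higher ones, none of them called higher in those 3 settings, were Mt3, Ncf1, a subunit of that oxidase, Keap1, the inhibitor of Nrf2, and Gstm5, a glutathione transferase. Prss35, a secreted protein related to serine proteases, was above background on 5 of 5 ligated and 1 of 6 sham arrays at day 6 and on 0 of 12 arrays at day 42. It stood at 8.45, 9.45, 6.03, 7.45 and 9.16 in the ligated ventricles of day 6, against 4.97, 5.29 and 5.99 in sham ventricles, a fitted effect of 2.76 ± 0.37. The groups were apart by 6.03 against 5.99 alone, and since sham arrays were mostly at background the size of the effect is not well measured. For its level at day 42 there is only a bound.

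Of 67 named genes with a call in the change of effect, 16 kept it in every alternative that gave a value: Cthrc1, Postn, Fn1, Spp1, Reg3b, Hmox1, Prss35, Pls3, Ppp1r18 and Eef1b2 with a lower effect at day 42, and Samd12, Ssh2, Igfbp5, Igsf1, Kcnj13 and the brighter probe of Map1b with a higher one. Cthrc1, Prss35 and Kcnj13 met the detection rule mainly through the group where they were high, and had values in 36, 35 and 36 of 37 alternatives. That they kept their calls therefore adds no support. With brightness in the fit 19 of the 67 kept the call, and under median scaling 45. Without background correction 20 of the 67 changes moved by over 1.5 times, all toward 0, among them Kcnj13 (0.84, against 1.72), Samd12 (1.41, against 2.39) and Prss35 (-1.78, against -3.10), so the sizes of these changes depend on that step. The signs of the 67 changes stayed as reported in the settings tried, apart from the other probe of Map1b.

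**Figure D5:**
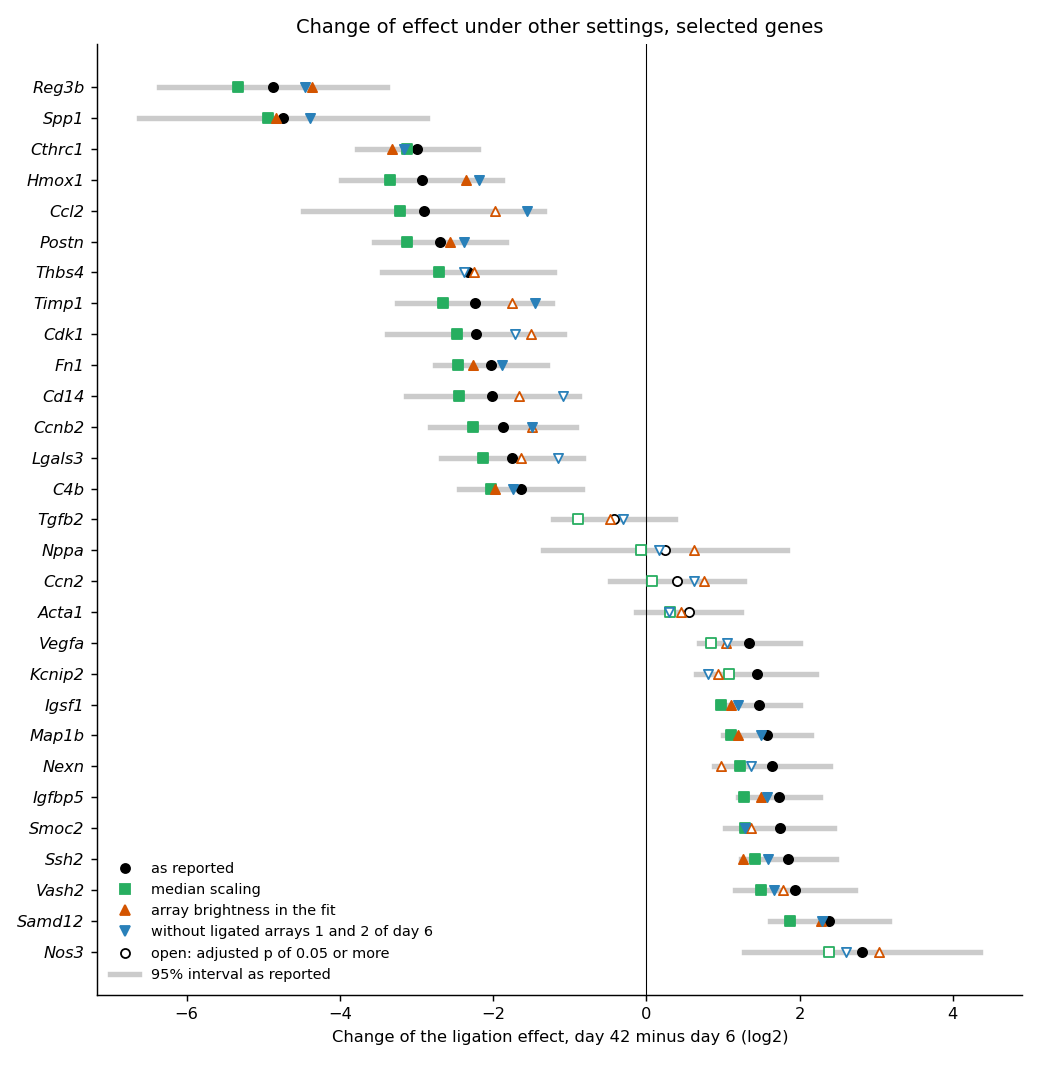
Change of the ligation effect (day 42 minus day 6, log2) of 29 genes as reported (circles, with the 95% interval in grey), under median scaling (squares), with array brightness in the fit (upward triangles) and without ligated arrays 1 and 2 of day 6 (downward triangles). Filled symbols passed an adjusted p of 0.05 and open ones did not. Values move little in Cthrc1, Postn, Fn1 and Spp1, and shift toward 0 without the 2 arrays in Ccl2, Timp1 and Cd14.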

How the data were processed

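Scanner intensity values, detection p-values and bead numbers per probe were deposited by the authors as 1 non-normalized table per day, and BeadStudio 3.3 and GenomeStudio are named in the submitters' processing notes. The depth of an array is not a read count, and precision is limited by the number of arrays. The 4 columns of a day 6 array that matched no sample were not used. Intensities were background-corrected against the negative controls (limma 3.58.1, R 4.3.3, normexp by detection p, offset 16), quantile-normalised within each day and log2-transformed. One limma fit of 4 group means over 23 arrays gave both ligation effects and their difference, tested two-sided with Benjamini-Hochberg adjustment over 8859 probes at 0.05. The fit was tested on simulated data with independent noise per probe and array. These held no effect of brightness or position, so that test does not bear on either. The probe with the highest mean stood for a gene, and 111 genes had several. Members, lists and tests were chosen with earlier results of these data known. Named genes were, among calls detected in all 4 groups, the 15 most changed in each direction, up to 4 per direction undetected in a group, up to 4 per list with the smallest p, genes called on both days and 15 fixed genes, and the text selects from these, with some other list members that had a call. Same-numbered arrays did not deviate together (r -0.263 to 0.338), so no pairing was used. Alternatives covered normalisation, filters, fits and each array left out. Promoters are from RefSeq (GRCr8).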

Additional observations from a re-analysis of the deposited data

Results flagged for a closer look

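In 20 of 332 groups of the named genes (6.02%), 1 array stood apart from the others of its group by Dixon's criterion, and chance gives about 1 in 20. Values are normalised log2 intensities, each with the nearest array of the group. Among the ligated ventricles of day 42, the arrays apart were those of Cd14 on array 1 (5.9, nearest 6.94), Ptgs2 on array 5 (5.1, nearest 5.48), Nos3 on array 3 (7.24, nearest 9.71), Abcc8 on array 4 (9.37, nearest 9.76) and Bdh2 on array 3 (8.97, nearest 8.6). Among the sham ventricles of day 42, the arrays apart were those of Fn1 on array 5 (9.74, nearest 9.07), Tubb6 on array 2 (7.41, nearest 7.78), Nos3 on array 6 (10.51, nearest 7.99), Nexn on array 4 (10.78, nearest 11.07) and Ndufa1 on array 6 (14.13, nearest 13.95). Among the ligated ventricles of day 6, the arrays apart were those of Osmr on array 1 (7.97, nearest 6.78), Ptgs2 on array 1 (10.72, nearest 7.86), Ankrd1 on array 1 (15.48, nearest 15.88), Tnfrsf12a on array 1 (12.26, nearest 11.35), Mt3 on array 2 (5.83, nearest 6.58), Cd1d1 on array 3 (9.71, nearest 9.39) and Fam81a on array 3 (6.97, nearest 5.79). Among the sham ventricles of day 6, the arrays apart were those of C4b on array 6 (6.12, nearest 6.96), Vash2 on array 3 (6.89, nearest 6.58) and Vegfa on array 3 (9.77, nearest 9). Ligated array 1 of day 6 is the one apart in Osmr, Ptgs2, Ankrd1 and Tnfrsf12a, and was 1 of the 2 brightest arrays. The part of brightness in these values was not tested. The ligation effect was called in opposite directions at day 42 and day 6, with the difference itself past the threshold in limma, for Bdh2 (0.89), Igfbp5 (1.73), Pls3 (-1.37), Ppp1r18 (-1.32), Praf2 (-1.56) and Sqor (-1.12), each given as the log2 effect at day 42 minus that at day 6. Both groups of Sqor were mostly at background at day 42, so its fall there is not measured.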

How the results depend on the processing

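As reported, 151 genes had a higher and 170 a lower ligation effect at day 42, with 947 calls at day 42 and 1145 at day 6. Under median scaling 10 were higher, with 2805 calls at day 42 and 351 at day 6. Without a detection filter 95 were higher and 108 lower. With a replicate block 61 were higher and 78 lower, with 127 of the 321 calls kept, but same-numbered arrays correlated best with each other in only 3 of 11 cases, so the numbers are not taken to pair samples. With array brightness as a covariate the counts were 24 and 19, with 141 calls at day 42. Without ligated arrays 1 and 2 of day 6 they were 46 and 47, with 576 calls at day 6. Scaling over the probes tested left 86 lower. The cause of these shifts was not tested. The lowest and highest counts without 1 array were 81 and 236 higher, 96 and 263 lower, 522 and 1228 calls at day 42 and 683 and 1325 at day 6. The higher count moved by over 1.5 times without ligated day 6 array 1 (90), ligated day 6 array 2 (99), ligated day 6 array 3 (236), sham day 6 array 2 (84), sham day 6 array 6 (92), ligated day 42 array 2 (93), ligated day 42 array 5 (81), sham day 42 array 3 (98) and sham day 42 array 4 (98). The lower count did so without ligated day 6 array 1 (113), ligated day 6 array 4 (263), sham day 6 array 2 (96), sham day 6 array 6 (98), ligated day 42 array 5 (104) and sham day 42 array 4 (113). The calls at day 42 did so without ligated day 42 array 3 (590), sham day 42 array 1 (522), sham day 42 array 2 (590) and sham day 42 array 3 (580). The calls at day 6 did so without ligated day 6 array 2 (683). Of the 67 named calls, 16 were kept in every alternative that gave a value. Reversed values were all of small changes that had no call, apart from Map1b, whose other probe gave -0.08. Nppa was -0.07 under median scaling. Ankrd1 was -0.00 with brightness in the fit and -0.08 without both arrays, and Myh6 was -0.21 and -0.18. Atp2a2 was 0.20 under median scaling, 0.01 with both days normalised together, 0.25 in the series matrix values, 0.04 with brightness in the fit and 0.69 with scaling over the probes tested. Leaving out 1 array gave -0.06 to 0.12 for Ankrd1, -0.05 to 0.11 for Myh6 and -0.04 to 0.01 for Atp2a2. The probes of Myh6, Ankrd1 and Atp2a2 were close to saturation, which limits what they can show, and dim probes undetected in a group have at most a bound.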

Other observations

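Small cell-type lists that the comparison did not turn on had values of their own. Of 6 T and NK cell markers tested, 3 were called down at day 42 and 3 at day 6, against 8.12% and 8.66% of all genes. The summed intensity of the 6 was 709.6 to 1177 in ligated and 1654 to 2322 in sham arrays at day 42, without overlap. At day 6 it was 806.3 to 3662 in ligated and 2091 to 3408 in sham arrays. Nkg7, a granule protein of cytotoxic lymphocytes, had effects of -1.33 at day 42 (adjusted p = 0.00322) and -0.92 at day 6 (adjusted p = 0.0268), and Klrd1, an NK cell receptor subunit, of -1.20 (adjusted p = 0.00796) and -1.35 (adjusted p = 0.00328). Neither had a call in the change of effect in limma (-0.40 ± 0.39 and 0.16 ± 0.41). Of 5 mast cell markers, 0 were called at day 42 (14.3% of all genes) and 2 were called down at day 6 (8.66% of all genes).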
